A study of Mus musculus with 9 samples.

Results

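The planar cell polarity core genes described here are 10 genes chosen by name, *Vangl1*, *Vangl2*, *Prickle1*, *Prickle2*, *Celsr1*, *Celsr2*, *Scrib*, *Ptk7*, *Ror2* and *Fzd6*, out of the 55228 genes in the count table. Of these, 9 had counts and passed the filter on low counts, as did 15253 genes in all. *Ror2* was at 0 counts in every culture and was not tested. Planar cell polarity aligns cells within the plane of a tissue. FZD6 with Dishevelled and VANGL with PRICKLE gather on opposite sides of a cell junction, and CELSR cadherins join the sides of neighbouring cells. In the mammary gland this pathway is known for its part in the shaping of ducts, and VANGL2 is a membrane protein of its core.

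The RNA came from HC11 cells, a mouse mammary epithelial cell line that can be induced to make milk proteins. There were 3 samples each of the parental cells (*WT*) and of 2 lines, *KD1* and *KD2*, in which Cas9 had been directed to *Vangl2* with a repair template carrying stop codons. The labels call both lines knockouts while the study's methods call them *KD*, and each was grown from a single colony, so the edit and the history of a clone cannot be told apart. All 3 groups were grown undifferentiated, with 10% fetal bovine serum, insulin and EGF in the medium, and poly-A RNA was sequenced. The labels number the replicates without stating that they were grown apart, so p-values measure the spread between these samples, which may be technical.

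Between 19231428 and 28360592 reads per sample had been counted on genes. *KD1* replicates were the most alike, with a chi-square per degree of freedom of 1.37 to 1.81 between pairs over genes. *KD2* replicates 1 and 2 differed by 1.74 on this measure, but replicate 3 differed from them by 17.4 and 22.1. *WT* replicate 1 also stood apart, at 13.1 and 10.7 from the others, against 3.38 between *WT* replicates 2 and 3.

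The mammary epithelial label was checked against marker genes. Of 8 epithelial markers, 6 were above the floor of 3 counts in all 9 samples, *Krt19* was at 0 and *Cdh1* had the highest mean CPM (counts scaled to library size) over the 9 samples. In *KD2*, *Epcam* and *Cdh1* both averaged 428 CPM, and per length *Epcam* was above *Cdh1* in each line. The summed level of the list was 1619 ± 83.9 in *WT*, 2666 ± 36.6 in *KD1* and 1353 ± 107 CPM in *KD2* (SD, n = 3 each). *Cldn4* alone stood at 22.0 ± 1.88, 633 ± 5.01 and 19.1 ± 2.66 CPM of these sums, while *Krt8* was higher in *KD2* (268 ± 29.7 CPM) than in *WT* (158 ± 21.5), against the sum. Of 7 mammary basal markers, led by *Krt5* in mean CPM, the sum was 3848 ± 237, 3890 ± 55.6 and 2017 ± 252 CPM. Against this sum, *Cnn1* stood at 0.0942 CPM in *WT* and 3.12 in *KD2*, *Acta2* at 0.165 and 1.54, and *Oxtr* at 7.78 in *WT* and 0.0774 in *KD1*. *WT* and *KD1* had similar sums, yet *Trp63* was higher in *KD1* (325 ± 9.79 CPM) than in *WT* (196 ± 9.22). *Krt14* was lower in *KD1* (1405 ± 15.0 CPM) than in *WT* (1527 ± 90.7). Of 8 luminal and milk markers, led by *Prlr*, the sum was 17.6 ± 0.804, 44.8 ± 0.548 and 14.2 ± 2.58 CPM, and *Lalba* and *Pgr* were at 0. *Prlr* alone made up 11.5 ± 0.589, 39.4 ± 0.566 and 7.77 ± 2.05 CPM of these sums. *Esr1* was not higher in *KD1* (4.86 ± 0.297 CPM) than in *WT* (5.74 ± 0.552). *Elf5*, also on this list, ran the other way from the sum in *KD2*, at 0.236 ± 0.0947 CPM in *WT*, 0.509 ± 0.287 in *KD1* and 1.72 ± 0.279 in *KD2*. Basal keratins were thus abundant in every line while milk protein genes were at or near 0. Of 7 fibroblast markers, 2 were above the floor in every sample. The sum of the 7 was 20.02 ± 3.02 CPM in *WT*, 9.14 ± 1.03 in *KD1* and 93.6 ± 5.43 in *KD2*, where *Pdgfrb* made up 66.8 ± 5.02 CPM. *Col1a1* went against this sum in *KD2*, at a mean of 4.38 CPM and 7.03 in *WT*, and these samples did not overlap. *Col3a1* was not higher in *KD2* (2.72 CPM) than in *WT* (3.03). *Pdgfra* was not lower in *KD1* (8.40 CPM) than in *WT* (7.96). The sums stayed under 10 CPM in every sample for the endothelial markers (led by *Pecam1*), the leukocyte markers (led by *Cd68*, with *Adgre1* at 0) and the adipocyte markers. The part of these differences between the lines in the values below was not tested.

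In *KD1*, 6 of the 9 polarity genes tested changed at an adjusted p under 0.05 in edgeR's quasi-likelihood test. *Prickle2*, *Prickle1* and *Vangl1* rose and *Celsr1*, *Vangl2* and *Celsr2* fell. Across all 15253 genes, 26.9% rose and 30% fell in *KD1*. In *KD2*, 1 of the 9 rose (*Prickle1*) and 4 fell (*Celsr2*, *Celsr1*, *Fzd6* and *Scrib*), against 34% of all genes that rose and 33.3% that fell. The 2 comparisons share their *WT* samples. Changes past 2-fold in either direction were found for 2 of the 9 in *KD1* (*Prickle2* and *Celsr1*) against 16.8% of all genes, and for 1 of the 9 in *KD2* (*Celsr2*) against 21.2%. Between the lines, 2 of the 9 were higher in *KD2* than in *KD1* and 6 lower, against 34.8% and 33% of all genes, and 1 (*Prickle2*) was past 2-fold, against 23.3%. The median log2 fold change of the 9 was −0.12 in both lines, beside −0.03 for all genes in *KD1* and 0.01 in *KD2*. Their median absolute log2 fold change was 0.61 in *KD1* and 0.48 in *KD2*, beside 0.35 and 0.46 for all genes. Some of these counts rest on single libraries. Without *KD2* replicate 3, 9 of 9 passed in *KD1*, against 64.6% of all genes. In *KD2*, 2 of the 9 were past 2-fold without *WT* replicate 1, and 2 rose in place of 1 without *WT* replicate 2 or *KD2* replicate 2. In bulk RNA, fewer cells that express a gene and less RNA per cell cannot be told apart.

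**Figure D1:**
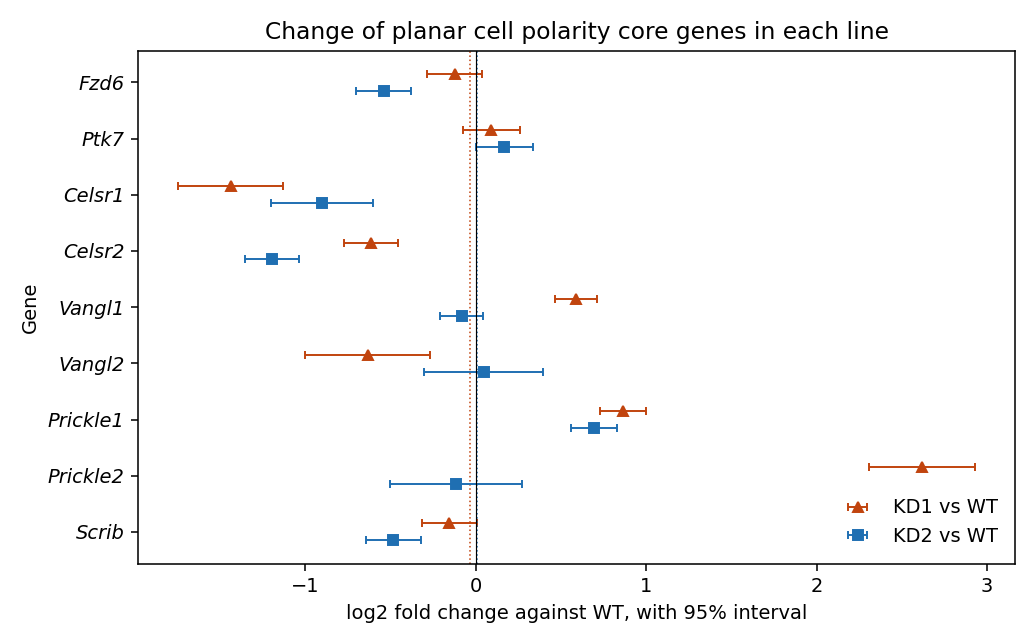
Log2 fold change of 9 polarity genes against *WT* (horizontal axis) in *KD1* (triangles) and *KD2* (squares), each with its 95% interval. Dotted lines are the medians of all genes tested, −0.03 in *KD1* and 0.01 in *KD2*. *Prickle2* in *KD1* lies farthest from 0, at 2.62, and *Prickle1* is the gene above 0 with intervals clear of 0 in both lines.

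*Vangl2* was the edited gene. Its counts were 66, 99 and 86 in *WT* replicates 1 to 3, 75, 48 and 69 in *KD1*, and 90, 118 and 90 in *KD2*. Scaled, these were 3.38, 3.96 and 4.20 CPM for *WT*, 2.77, 1.89 and 2.78 in *KD1*, and 3.64, 3.93 and 4.43 in *KD2*. Every *KD1* sample was under every *WT* sample, while *KD2* samples lay within and just above the *WT* range. *Vangl2* fell by 0.63 on the log2 scale in *KD1* (SE 0.171, adjusted p = 0.00581), a 1.55-fold decrease. Of all genes tested, whether or not they passed, 29.8% had an absolute log2 fold change at least as large. In *KD2* the log2 fold change was 0.05 (SE 0.162, adjusted p = 0.81), with a 95% interval of −0.30 to 0.40, and −0.04 without *WT* replicate 1. The difference between the lines was itself past the threshold, at 0.68 (SE 0.167, adjusted p = 0.00248). A count over all exons does not show whether a transcript carries the edit, and protein was not measured in these data. By immunoblot, the study reported almost no VANGL2 protein in *KD1* and a strongly reduced level in *KD2*.

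The gene is read from the minus strand of chromosome 1 (GRCm38). Both Cas9 targets fall in coding sequence of exon 3 of 8 of a transcript with 521 codons, at chr1:172012828-172012948. The guide named mV2sgRNA1 targets chr1:172012914-172012933, with a cut in codon 30, and mV2sgRNA2 targets chr1:172012923-172012942, with a cut in codon 27. *Vangl1*, the paralog of *Vangl2*, has 70.2% of aligned coding bases in common with it. The coding stretch of each gene is shown because the lines differed in *Vangl1* as well. Both run 5′ to 3′ along the gene, at chr1:172012902-172012948 and chr3:102189495-102189547. Capitals mark the joint span of both targets in *Vangl2*, and in *Vangl1* the bases identical to it.
Vangl2: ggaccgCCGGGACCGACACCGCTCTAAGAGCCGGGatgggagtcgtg
Vangl1: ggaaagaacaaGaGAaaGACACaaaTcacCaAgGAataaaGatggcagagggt
Of the 29 bases of this span, 14 are identical in *Vangl1*. In the alignment, *Vangl1* differs from the mV2sgRNA1 target at 10 of 20 bases and from the mV2sgRNA2 target at 9 of 20. These counts leave out *Vangl1* bases that have no partner in *Vangl2* and lie within both targets. The bases that form the protospacer-adjacent motif in *Vangl2* do not form one in *Vangl1*. The alleles of the edited lines were not read here.

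*Vangl1* encodes the other VANGL membrane protein. It stood at 52.2, 55.8 and 56.2 CPM in *WT*, 83.6, 79.8 and 83.9 in *KD1*, and 52.8, 50.3 and 52.2 in *KD2*. The *KD1* samples were above all others, and *WT* and *KD2* overlapped. *Vangl1* rose 1.51-fold in *KD1* (log2 fold change 0.59, SE 0.0572, adjusted p = 8.5e-07). In *KD2* the log2 fold change was −0.08 (SE 0.058, adjusted p = 0.229), and 0.03 with library size alone as the scaling. Per length, *Vangl1* was the more abundant of the pair in every sample. The ratio of *Vangl1* to *Vangl2* per length was 15.1, 13.8 and 13.1 in *WT*, 29.5, 41.3 and 29.5 in *KD1*, and 14.2, 12.5 and 11.5 in *KD2*. Thus *Vangl2* made up 6.70% ± 0.451 of the pair's level in *WT*, 2.98% ± 0.529 in *KD1* and 7.33% ± 0.706 in *KD2* (SD, n = 3 each).

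*Prickle1* and *Prickle2* encode cytoplasmic partners of VANGL with LIM domains. *Prickle2* was low in *WT*, at 2.15, 2.96 and 3.03 CPM, and in *KD2*, at 2.83, 2.06 and 2.75 CPM. In *KD1* it stood at 18.7, 15.8 and 15.8 CPM. All *KD1* samples were far above the overlapping *WT* and *KD2* samples. The rise in *KD1* was 6.14-fold (log2 fold change 2.62, SE 0.145, adjusted p = 2.23e-09). An absolute log2 fold change at least that large was found for 5.45% of all genes tested, whether or not they passed. In *KD2* the log2 fold change was −0.12 (SE 0.179, adjusted p = 0.585), and 0.04 without *KD2* replicate 2. On the log2 scale, the line means of *Prickle2* spanned the widest range among the 9 genes.

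*Prickle1* stood at 65.9, 58.0 and 60.6 CPM in *WT*, 112, 111 and 113 in *KD1*, and 104, 95.6 and 99.4 in *KD2*. Every edited sample was above every *WT* sample, and the *KD1* samples were above those of *KD2*. It rose 1.82-fold in *KD1* (log2 fold change 0.86, SE 0.0621, adjusted p = 3.65e-08) and 1.62-fold in *KD2* (0.70, SE 0.0622, adjusted p = 2.93e-07). The difference between the lines, −0.17 (SE 0.0607, adjusted p = 0.0247), did not pass with library size alone (−0.04), nor without *KD1* replicate 1 (−0.18), 2 (−0.18) or 3 (−0.17) or *KD2* replicate 2 (−0.14). Other genes of chromosome 15, where *Prickle1* lies, had a median log2 fold change of −0.16 in *KD1* and −0.17 in *KD2*. The ratio of *Prickle1* to *Prickle2* per length was 46.5 ± 12.4 in *WT*, 13.3 ± 1.27 in *KD1* and 78.9 ± 11.4 in *KD2* (SD, n = 3 each), with no overlap between lines.

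*Celsr1* and *Celsr2* encode cadherins with 7 membrane spans that bind the same protein on the next cell. *Celsr1* stood at 10.3, 15.4 and 11.4 CPM in *WT*, 4.91, 4.36 and 4.52 in *KD1*, and 6.47, 6.39 and 7.23 in *KD2*. The lines did not overlap, with *WT* highest and *KD1* lowest, and *WT* replicate 2 lay above the other *WT* samples. *Celsr1* fell by 1.44 on the log2 scale in *KD1* (SE 0.143, adjusted p = 1.14e-06) and by 0.90 in *KD2* (SE 0.138, adjusted p = 5.43e-05). Without *WT* replicate 1, *Celsr1* fell by 1.02 in *KD2*, past 2-fold, and without *WT* replicate 2 it fell by 0.68 there and by 1.22 in *KD1*. The difference between the lines was 0.54 (SE 0.15, adjusted p = 0.006).

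*Celsr2* stood at 190, 216 and 181 CPM in *WT*, 131, 124 and 129 in *KD1*, and 84.1, 80.5 and 92.0 in *KD2*. Here the lines did not overlap either, and *KD2* was lowest. *Celsr2* fell by 0.61 on the log2 scale in *KD1* (SE 0.0726, adjusted p = 6.25e-06) and by 1.20 in *KD2* (SE 0.0739, adjusted p = 7.46e-09), which is 1.53-fold and 2.29-fold. The difference between the lines was −0.58 (SE 0.0735, adjusted p = 7.86e-06). Both cadherin genes were thus lower in both lines, *Celsr1* more so in *KD1* and *Celsr2* more so in *KD2*. Per length, *Celsr2* exceeded *Celsr1* by 15.4 ± 2.10 times in *WT*, 26.7 ± 1.06 in *KD1* and 12.2 ± 0.201 in *KD2* (SD, n = 3 each), and these ratios did not overlap between lines.

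*Fzd6* encodes the Frizzled receptor of the core group. It stood at 161, 153 and 148 CPM in *WT*, 139, 144 and 142 in *KD1*, and 115, 110 and 92.3 in *KD2*. No samples overlapped between lines, and *KD2* replicate 3 was lowest. *Fzd6* fell by 0.54 on the log2 scale in *KD2* (SE 0.0753, adjusted p = 2.27e-05) and differed from *KD1* by −0.42 (SE 0.0751, adjusted p = 0.000209). Without *KD2* replicate 3 these values were −0.43 and −0.32, and both passed. In *KD1* the log2 fold change was −0.12 (SE 0.0747, adjusted p = 0.179). Without *KD2* replicate 3, which enters the shared estimate of the spread, it was −0.10 and passed, while in a fit of only the 6 samples compared it was −0.08 and did not. Of its exon bases, 3.16% overlap *Gm26704* on the opposite strand, and whether the counting used strand is not given in the sources used here, so reads of that overlap are uncertain.

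Among the 10 Frizzled genes, *Fzd6* ranked the second in level per length in every line, after *Fzd7*. *Fzd7* lay outside the rule for named genes and was chosen after its values were seen. It stood at 54.5 ± 0.433 CPM per kilobase of exon (RPKM) in *WT*, 31.3 ± 0.487 in *KD1* and 29.0 ± 0.457 in *KD2* (SD, n = 3 each). It fell by 0.80 on the log2 scale in *KD1* (SE 0.05, adjusted p = 8.28e-09) and by 0.91 in *KD2* (SE 0.05, adjusted p = 2.62e-09). The summed Frizzled level was 134 ± 2.57 RPKM in *WT*, 89.2 ± 1.25 in *KD1* and 86.3 ± 2.37 in *KD2*. *Fzd6* made up 23.9% ± 1.18 of it in *WT*, 32.9% ± 0.231 in *KD1* and 25.4% ± 2.26 in *KD2*. The share in *KD1* was above that in every other sample, at a *Fzd6* level per length that was not higher than in *WT*.

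*Ptk7* encodes a pseudokinase co-receptor. Its level was 158, 181 and 172 CPM in *WT*, 182, 185 and 179 in *KD1*, and 182, 176 and 217 in *KD2*. The lines overlapped, and *KD2* replicate 3 was highest. The log2 fold change was 0.09 in *KD1* (SE 0.0775, adjusted p = 0.331) and 0.17 in *KD2* (SE 0.0776, adjusted p = 0.069). Other genes on chromosome 17 had a median of 0.28 in *KD2*. Without *KD2* replicate 3 the value in *KD1* was 0.11 and passed, as it did at 0.13 with only the 6 samples compared. The value in *KD2* passed at 0.24 without *WT* replicate 2, at 0.23 without *KD2* replicate 2, at 0.28 with library size alone and at 0.18 in DESeq2. The call for *Ptk7* thus depended on these choices in both lines.

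*Ror2* encodes a receptor tyrosine kinase for WNT5A that is known to act upstream of VANGL2 phosphorylation. It was at 0 counts in all 9 samples, which allows up to 0.0999 to 0.154 CPM depending on the library, or 0.0235 to 0.0362 RPKM (3 counts, counting error only). *Wnt5a*, the gene of its ligand, was also at 0 in all 9. Its paralog *Ror1* had 15, 17 and 12 counts in *WT*, 64, 59 and 58 in *KD1*, and 475, 544 and 291 in *KD2*. No *Ror1* samples overlapped between lines. *Ror1* rose 3.44-fold in *KD1* (log2 fold change 1.78, SE 0.217, adjusted p = 8.22e-06) and 25.3-fold in *KD2* (4.66, SE 0.169, adjusted p = 5.04e-11). Reads assigned to the ROR pair thus came from *Ror1* in every line.

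*Scrib* encodes a scaffold of the basolateral membrane that binds VANGL2. It stood at 228, 230 and 226 CPM in *WT*, 203, 202 and 208 in *KD1*, and 157, 146 and 186 in *KD2*. The lines did not overlap, and *KD2* replicate 3 lay nearest to *KD1*. *Scrib* fell by 0.48 on the log2 scale in *KD2* (SE 0.0751, adjusted p = 6.28e-05), and by 0.56 without *KD2* replicate 3. In *KD1* the log2 fold change was −0.16 (SE 0.0747, adjusted p = 0.0913), the same as the median of the other genes of chromosome 15 to 2 decimals, and −0.14 without *KD2* replicate 3 and −0.12 with only the 6 samples compared, where it passed in both. With *KD2* replicate 3 left out, *Scrib*, *Fzd6* and *Ptk7* all passed in *KD1*.

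Levels were ordered per length within each line. In *WT* the order from high to low was *Scrib* (35.3 ± 0.351 RPKM), *Fzd6* (32.0 ± 1.34), *Ptk7* (31.7 ± 2.13), *Celsr2* (17.0 ± 1.57), *Prickle1* (14.2 ± 0.918), *Vangl1* (7.65 ± 0.304), *Celsr1* (1.13 ± 0.242), *Vangl2* (0.55 ± 0.0602) and *Prickle2* (0.314 ± 0.0565; SD, n = 3 each). *Fzd6* and *Ptk7* overlapped, and other neighbours in this order did not. In *KD1*, *Ptk7* was highest (33.8 ± 0.575 RPKM) and *Vangl2* lowest (0.355 ± 0.0734), with *Prickle2* (1.94 ± 0.191) above *Celsr1* (0.418 ± 0.0256). *Vangl1* overlapped *Celsr2* there, as *Celsr1* did *Vangl2*. In *KD2*, *Ptk7* was again highest (35.6 ± 4.10 RPKM) and *Prickle2* lowest (0.295 ± 0.0489). *Scrib*, *Prickle1* and *Fzd6* overlapped in turn in *KD2*, as did *Celsr2* with *Vangl1* and *Celsr1* with *Vangl2*. Each of the VANGL, PRICKLE and CELSR families thus had an abundant and a scarce gene in all lines.

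**Figure D2:**
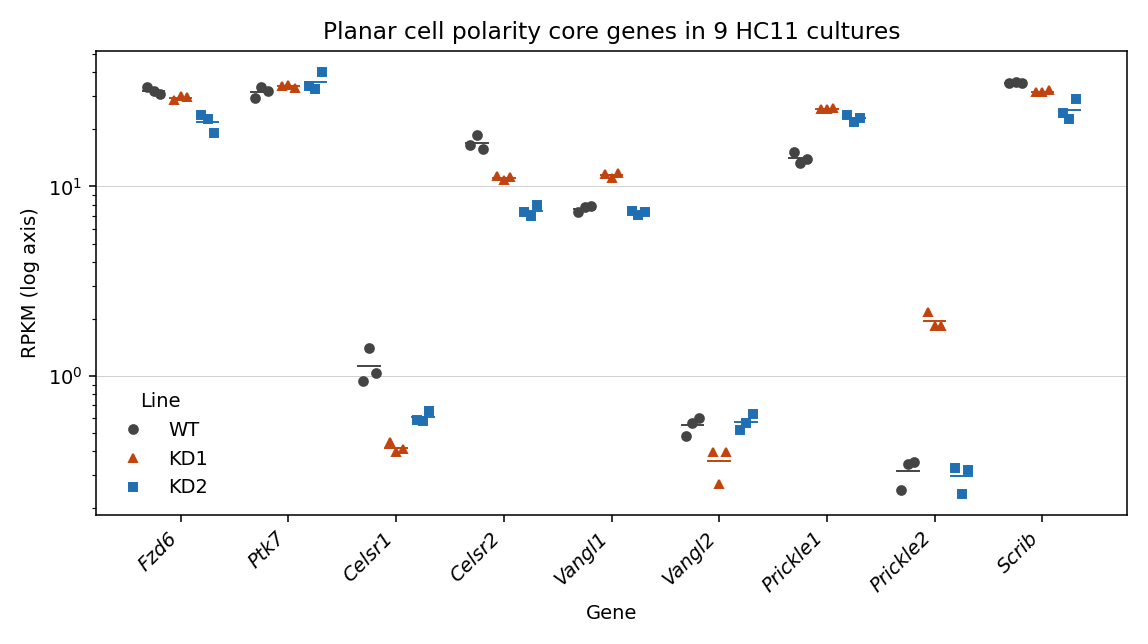
Level of 9 polarity genes in RPKM (log axis), 1 point per sample, with *WT* as circles, *KD1* as triangles, *KD2* as squares and the mean of each line as a bar. *Ror2*, at 0 counts in every sample, is not drawn. *Celsr1*, *Vangl2* and *Prickle2* lie well below the other genes, and *Prickle2* in *KD1* is raised to 1.94 ± 0.191 RPKM.

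Other genes of the pathway were taken from a list of 72, of which 60 were tested. In *KD1*, 23 rose and 20 fell, which is 38.3% and 33.3% of those tested against 26.9% and 30% of all genes. In *KD2*, 18 rose and 28 fell, or 30% and 46.7% against 34% and 33.3%. Past 2-fold there were 12 in *KD1* and 9 in *KD2*, or 20% and 15% against 16.8% and 21.2% of all genes. The 60 had a median log2 fold change of 0.05 (*KD1*) and −0.12 (*KD2*). By role, in *KD1*, 0 of 4 ligands rose and 2 fell, as did 2 and 9 of 12 receptors and co-receptors, 3 and 1 of 6 core scaffolds and cadherins, and 2 and 1 of 4 genes of the Fat and Dachsous module. Of 15 effectors 6 rose and 4 fell, of 11 trafficking genes 5 and 3, and of 8 partners of SCRIB and PRICKLE 5 and 0. In *KD2* the numbers that rose and fell, in the same order, were 1 and 3, 2 and 6, 3 and 1, 2 and 2, 7 and 6, 2 and 6, and 1 and 4. Differences between roles were not tested.

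Of the ligands, *Wnt7a* had 35, 41 and 25 counts in *WT*, 54, 55 and 41 in *KD1*, and 1, 2 and 1 in *KD2*. *KD2* was near 0 and the other lines overlapped. Over the groups this was 29.2 times lower in *KD2* than in *WT* (95% counting interval 11.0 to 109). *Wnt4*, also a ligand, fell by 1.03 on the log2 scale in *KD2* (SE 0.186), and *Wnt7b* fell by 1.09 in *KD1* (SE 0.059) and by 0.31 in *KD2* (SE 0.0574). Among the receptors, *Fzd1* fell by 1.20 (SE 0.0641) and *Fzd4* by 1.30 (SE 0.0886) in *KD1*, and by 0.60 (SE 0.0629) and 0.71 (SE 0.0856) in *KD2*. *Fzd5* rose in *KD1* by 1.49 (SE 0.0982) and *Fzd9* fell by 1.29 (SE 0.243). In *KD2* neither passed the test, at −0.02 (SE 0.106) for *Fzd5* and 0.31 (SE 0.206) for *Fzd9*. The *Fzd5* value was 0.06 without *WT* replicate 2 and 0.12 without *KD2* replicate 3. Of *Fzd5* exon bases, 17.8% overlap *Gm38058* on the opposite strand, so its counts are uncertain in that part, as are those of *Wnt7b* over the 6.62% that overlap *AU022754*.

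The Fat and Dachsous module is a second set of large cadherins that orient tissue. *Fat2* stood at 51.2, 67.2 and 53.4 CPM in *WT*, 187, 182 and 189 in *KD1*, and 5.82, 5.89 and 4.57 in *KD2*. *KD1* was above and *KD2* below *WT* in every sample. *Fat2* rose by 1.70 on the log2 scale in *KD1* (SE 0.0939, adjusted p = 2.2e-09) and fell by 3.39 in *KD2* (SE 0.118, adjusted p = 3.43e-11). *Fat4* went the other way, with 41, 79 and 47 counts in *WT*, 1, 4 and 2 in *KD1*, and 462, 515 and 346 in *KD2*. The gene was 28.4 times lower in *KD1* than in *WT* (95% counting interval 13.5 to 71.7). Its fitted log2 fold change there was −4.74, and −5.34 without *KD1* replicate 2. In *KD2*, *Fat4* rose 6.89-fold (log2 fold change 2.78, SE 0.145, adjusted p = 1.41e-09). *Fat4* exons overlap *C230034O21Rik* (7.04% of exon bases) and *Gm43539* (1.64%) on the opposite strand. *Fjx1*, a kinase gene of the module, rose by 1.13 in *KD1* (SE 0.125) and by 0.70 in *KD2* (SE 0.129).

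In the core and effector groups, *Prickle3*, the third PRICKLE gene tested, stood at 5.12, 5.00 and 4.54 CPM in *WT*, 1.11, 1.57 and 0.928 in *KD1*, and 5.13, 4.79 and 6.25 in *KD2*. The gene was low in *KD1* alone, where *Prickle1* and *Prickle2* were high, and fell there by 2.02 on the log2 scale (SE 0.189, adjusted p = 5.83e-07). In *KD2*, where *Prickle1* was also high, the log2 fold change of *Prickle3* was 0.13 (SE 0.155) and did not pass. *Prickle3* exons overlap *Plp2* on the opposite strand over 5.02% of bases. The effector genes *Daam2*, of a formin, and *Wdpcp* and *Cplane2*, of ciliogenesis and planar polarity effectors, were highest in *KD2*. *Daam2* rose by 1.05 in *KD1* (SE 0.288) and by 2.61 in *KD2* (SE 0.242). *Wdpcp* rose by 1.47 (SE 0.109) and *Cplane2* by 1.09 (SE 0.18) in *KD2*, with 0.06 (SE 0.119) and −0.03 (SE 0.197) in *KD1*, which did not pass. For *Cplane2* this was 0.00051 without *WT* replicate 2, 0.09 without *WT* replicate 3 and 0.04 without *KD1* replicate 1. *Dact1*, of a Dishevelled-binding protein, had 3 to 6 counts per *WT* sample and 22 to 44 per *KD2* sample, 7.14 times more after scaling (95% counting interval 3.91 to 14.3). Of its exon bases, 34.9% overlap *4930474H06Rik* on the opposite strand, so its counts are uncertain.

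**Figure D3:**
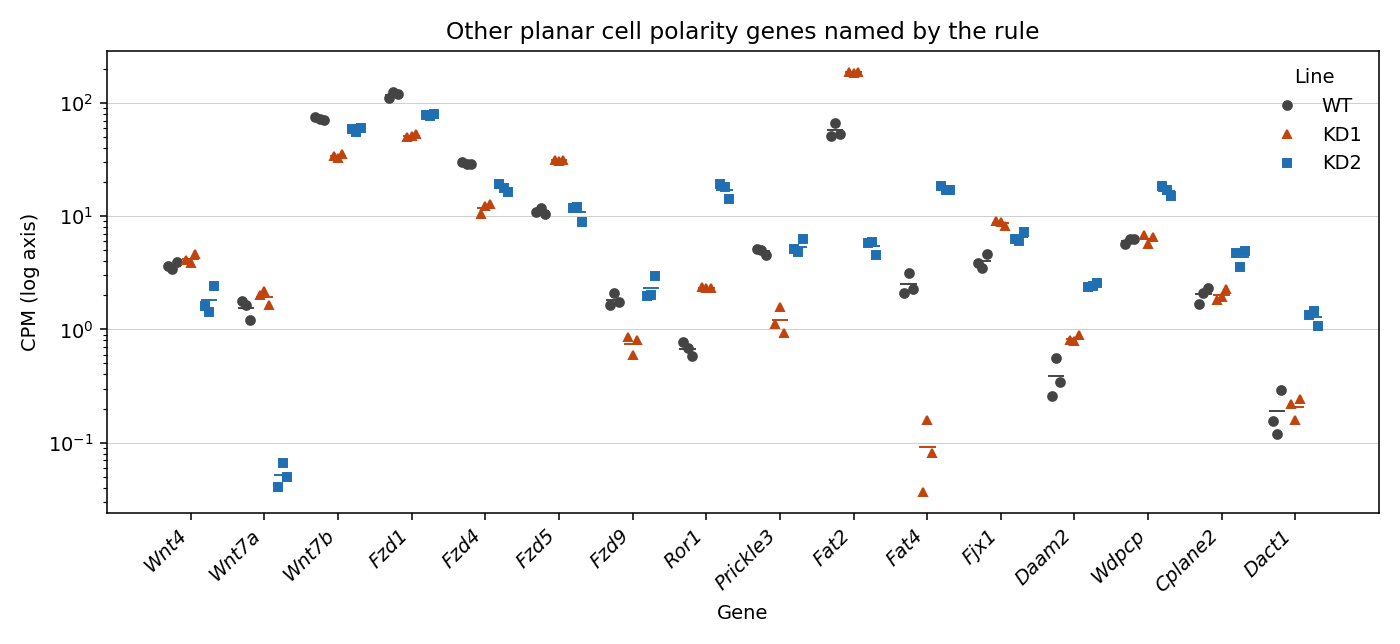
Level of 16 other planar cell polarity genes in CPM (log axis), 1 point per sample, with *WT* as circles, *KD1* as triangles, *KD2* as squares and line means as bars. *Fat2* and *Fat4* lie on opposite sides of *WT* in the 2 edited lines, and *Wnt7a* in *KD2* and *Fat4* in *KD1* are at 1 to 4 counts per sample.

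For likeness of pattern, each gene's log2 CPM was centred on its own mean over the 9 samples. Among 11729 candidates, the 3 genes with the smallest root mean square difference from *Vangl2* were *Pccb* (0.117 on the log2 scale), *Ermard* (0.12) and *Pts* (0.121). *Pccb* stood at 22.3 ± 1.07 CPM in *WT*, 14.7 ± 0.508 in *KD1* and 22.4 ± 2.11 in *KD2* (SD, n = 3 each). For *Prickle2* they were *Capn5* (0.131), *Lncenc1* (0.159) and *Ier3* (0.162). *Capn5* stood at 9.84 ± 1.54 CPM in *WT*, 51.4 ± 0.82 in *KD1* and 7.88 ± 0.646 in *KD2*. These genes were chosen for their resemblance, so their values are a description.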

How the data were processed

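The table deposited by the authors holds counts, as whole numbers, for 55228 genes. By the labels and methods, trimming was done with fastp, alignment with HISAT2 (GRCm38) and counting over exons with featureCounts. Strandedness and the handling of reads that map to several places are not given in the sources used here. Each of the 9 columns was matched to its sample by name, and 0 columns were left over.

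Counts were tested with edgeR 4.0.16 in R 4.3.3 (quasi-likelihood test, TMM scaling, expression filter on the 3 groups, 1 fit of all 9 samples), with Benjamini-Hochberg adjustment over the 15253 genes tested. Changed means an adjusted p under 0.05, and past 2-fold an absolute log2 fold change above 1 as well. Each SE is the log2 fold change divided by the root of its F. Fits were tested on simulated data. CPM values divide counts by the library size after TMM, and RPKM values are CPM per kilobase of exon. Counting intervals are exact binomial intervals at 95% on summed counts. Counting intervals and floors cover counting error only, since the reads carried no molecular identifiers.

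Positions, exon lengths and overlaps came from GENCODE M21 for GRCm38, not the release the authors counted with, so exon lengths behind RPKM values and ratios per length may differ from theirs. In M21, 53569 gene names matched directly, 141 by another name and 1518 not. The coding sequences of *Vangl2* and *Vangl1* came from the same release and were aligned globally, and 50-base windows of exons were compared between genes. Of these windows, 2.12% were shared with other genes for *Fzd6* (all with *Gm26704*), 0.48% for *Vangl1*, 0.0996% for *Vangl2* and 0.0372% for *Ptk7*, and 0 for the other polarity core genes.

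The members and lists were chosen with earlier results of these data known. Named genes are the 10 core genes and pathway genes past 2-fold in a line against *WT* (at most 6 per comparison and direction). To these were added the 3 genes each most like *Vangl2* and the core gene with the widest log2 span of line means. The candidates were tested genes with a mean log2 CPM above 1 (0.5 CPM added). The rule and the alternatives were written before the data were examined here, with those earlier results known. Alternatives were DESeq2 1.42.0 (Wald test), DESeq2 size factors in edgeR, library size alone, no filter beyond 1 count, only the 6 samples compared, the replicate number as a block, each sample left out in turn, and subtraction of the median of other genes on the same chromosome.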

Additional observations from a re-analysis of the deposited data

Results flagged for a closer look

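The results here differ between the edited lines by the direct test of *KD2* against *KD1* (edgeR's quasi-likelihood test, Benjamini-Hochberg adjustment), which is the difference of the lines' effects against *WT*. Of the 9 core genes tested, 8 passed, and each value is a log2 difference with *KD2* above *KD1* counted as positive. *Vangl2* (0.68) and *Celsr1* (0.54) were higher in *KD2*. *Prickle2* (−2.73), *Vangl1* (−0.67), *Celsr2* (−0.58), *Fzd6* (−0.42), *Scrib* (−0.33) and *Prickle1* (−0.17) were lower. *Prickle1* did not pass without *KD1* replicate 1 (−0.18), 2 (−0.18) or 3 (−0.17) or *KD2* replicate 2 (−0.14), nor with library size alone (−0.04). By the same test, 34.8% of all genes were higher and 33% lower in *KD2*. *Ptk7* did not pass, at 0.08 (adjusted p = 0.399), and was −0.01 without *KD2* replicate 3. It passed at 0.20 with library size alone.

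All 16 of the other pathway genes named by the rule differed between the lines as well. Higher in *KD2* were *Fat4* (7.52), *Ror1* (2.88), *Dact1* (2.63), *Prickle3* (2.15), *Fzd9* (1.60), *Daam2* (1.56), *Wdpcp* (1.41), *Cplane2* (1.12), *Wnt7b* (0.78), *Fzd1* (0.60) and *Fzd4* (0.59). Lower were *Fat2* (−5.09), *Wnt7a* (−5.06), *Fzd5* (−1.51), *Wnt4* (−1.23) and *Fjx1* (−0.43). These genes were named for a change in a line against *WT*, and that choice favours genes that differ between the lines. Of all 60 pathway genes tested, 25 were higher in *KD2* than in *KD1* and 29 lower (41.7% and 48.3%), and 18 were past 2-fold (30%, against 23.3% of all genes). The fitted values of *Fat4* and *Wnt7a* rest on 1 to 4 counts per sample in the lower line, where the ratio of summed counts was 195 (95% counting interval 94.2 to 485) and 36.4 (13.9 to 135). For *Fat4*, the fitted value ranged from 7.1 to 8.1 with samples left out in turn.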

How the results depend on the processing

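The core genes gave 405 log2 fold changes over the 15 alternatives that have a test, of which 386 kept their direction and side of the threshold, 5 lost the call, 10 gained it and 4 changed sign. Sign changes were in values near 0 that did not pass. *Vangl1* in *KD2* was 0.029 with library size alone. With samples left out in turn, *Vangl2* in *KD2* ranged from −0.038 to 0.13, *Prickle2* in *KD2* from −0.25 to 0.038 and *Ptk7* between the lines from −0.014 to 0.13. Of 719 values for the other named genes, 711 kept direction and side and 8 changed sign. With samples left out, *Dact1* in *KD1* ranged from −0.097 to 0.62, *Cplane2* in *KD1* from −0.14 to 0.092 and *Fzd5* in *KD2* from −0.095 to 0.12. *Cplane2* in *KD1* was 0.0064 with only the 6 samples compared, and *Fzd5* in *KD2* 0.093 with library size alone. The cause was not tested.

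The number of core genes past 2-fold in *KD2* was 1 to 2 with samples left out, and 2 without *WT* replicate 1. The numbers of all genes and of core genes changed or past 2-fold, and of pathway genes changed, otherwise stayed within 1.5 times the value in the report. By direction, the core genes that rose in *KD2* were 2 in place of 1 with library size alone, in DESeq2, without *WT* replicate 2 and without *KD2* replicate 2. Between the lines, 3 were higher and 5 lower with library size alone. The pathway counts by role and past 2-fold were not computed under the alternatives. The number changed in *KD1* was 6 to 9 with samples left out (9 without *KD2* replicate 3, against 64.6% of all genes) and 8 with only the 6 samples compared (against 66.7%), where 56.9% of all genes changed with every sample kept. Library size alone shifted the median of all genes by 0.11 in *KD2* against *WT* and by 0.13 in *KD2* against *KD1*, and there the share of changed genes that were higher was 61.8% against 51.3%.

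Same-numbered samples of different lines did not deviate together (mean correlation 0.0083 across genes, from −0.075 to 0.11). With the replicate number as a block, 4062 genes rose and 4570 fell in *KD1* in place of 4103 and 4583, and no core gene's call changed. Subtraction of the median of other genes on the chromosome has no test and is not among the values counted above. It changed the sign of *Scrib* (0.0062) and *Fzd6* (0.039) in *KD1*, of *Vangl2* (−0.09) and *Ptk7* (−0.12) in *KD2*, and of *Ptk7* between the lines (−0.19). *Prickle1* moved to 1.03 in *KD1*, past 2-fold, and 0.87 in *KD2*, and *Celsr1* to −1.28 and −0.73. In *KD2*, *Prickle2* moved to −0.35, *Scrib* to −0.32 and *Fzd6* to −0.37, and *Prickle2* between the lines to −2.90. Depth limits *Vangl2* and *Prickle2*, at 42 to 118 counts in *WT* and *KD2*, and *Vangl2* in *KD1*, at 75, 48 and 69 counts.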
